A study of Vaccinium virgatum with 9 samples.

Results

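In fruit of rabbiteye blueberry (Vaccinium virgatum), 77 genes stood higher where plants had received potassium sulfate at flowering than where they had received water, and stood near the water level where the salt came at the young fruit stage. They were chosen by their measured values, out of 38665 entries in the table. A member had a mean of at least 5 CPM (counts per 1000000, with library totals adjusted by TMM factors) after flowering-stage potassium, at least 1.5 times the mean of water and at least 1.5 times the mean of young-fruit-stage potassium. Its mean after young-fruit-stage potassium was also less than 20% below and less than 25% above that of water.

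Potted plants of a Menditoo × Tifblue cross, 7 years old, were given water, or 10 g of potassium sulfate per plant in water at the flowering stage, or 10 g per plant at the young fruit stage. Each group held 3 libraries. Below, flowering and young fruit name a group by the timing of the salt, not by the stage at which its fruit was picked. All fruit was picked 90 days after flowering, and each replicate pooled 12 to 18 fruits from the upper layer, so a library is a pool and not a single fruit. Whether the pools within a group were picked from different plants is not stated in the labels. Tests therefore measure the spread of these libraries, some of which may be technical. Potassium and sulfate were given together, and an earlier treatment also left a longer time to picking. Neither pair of factors can be told apart in this design.

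Potassium is the main inorganic cation of plant cells. It maintains turgor, is required by many enzymes and takes part in loading sugars into the phloem that feeds growing fruit. Sulfate is the source of sulfur for cysteine and methionine. The title of the series concerns anthocyanins, the flavonoid pigments that turn blueberries from green to blue, and the libraries were made from fruit at 1 age. The table pairs no identifier with a gene name or function, so no member could be placed in any of these pathways, the labelled tissue could not be checked against marker genes, and members are described by identifier, level and rank.

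Library totals ran from 15655016 to 18424967 counts. Replicates of a group differed by more than counting noise (chi-square per degree of freedom 2.69 to 6.28, near 1 for repeated sequencing of 1 library), so none was treated as a repeat. Of the 77 members, 60 have the identifier prefix Vadar (Vadar genes below). The remaining 17 have another prefix (non-Vadar loci). All 77 passed the filter on low counts and were among the 25728 genes tested.

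The rule passed few genes at its last steps. A flowering mean of at least 5 CPM was reached by 14325 entries, and 2005 of these were also at least 1.5 times the water mean. Of the 2005, 216 were at least 1.5 times the young fruit mean as well. The bounds on young fruit over water then left 77, while 119 of the 216 stood above the upper bound (higher than water at both timings) and 20 stood below the lower bound. The same bounds with the timings exchanged gave 145 genes raised by potassium at young fruit but not at flowering. That mirrored set had a median of 1.88 times water and 1.77 times the other timing, against 1.90 and 1.85 for the 77.

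Most rises were modest. Across the 77, the flowering mean was 1.52 to 46.8 times the water mean, with a median of 1.90 and quartiles of 1.65 and 2.18. Relative to young fruit it was 1.502 to 41.9 times as high, with a median of 1.85 and quartiles of 1.597 and 2.23. At least 2-fold over both other groups was reached by 24 members, and at least 3-fold over both by 7. In bulk fruit, more cells of a type and more RNA per cell cannot be told apart.

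Levels covered a wide range. The median flowering level of the members was 16.2 CPM, lower than the median of 26.0 CPM over all 14325 entries that met the same minimum. Flowering levels were under 10 CPM in 26 members, 10 to 50 CPM in 36, 50 to 100 CPM in 4 and at least 100 CPM in 11. CPM is not scaled by gene length, so these values order counts and not transcript numbers.

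The median of the members was raised in each flowering library, as the choice of members largely fixes. Their median CPM, relative to each gene's own water mean, was 1.86, 1.93 and 1.85 in the 3 flowering libraries and 1.01, 1.03 and 1.03 in the 3 young fruit libraries. Single members departed from this: the lowest ratio to the water mean was 0.663 in flowering replicate 3 and 1.07 in flowering replicate 1. Summed over the 77, they took 3359, 3380 and 3188 CPM after flowering-stage potassium. The sums in water were 1691, 1681 and 1655 CPM, and those after young-fruit-stage potassium were 1745, 1784 and 1748 CPM. The flowering sums did not overlap those of the other groups, a separation that the rule largely fixes. Without the single most variable locus the flowering sums were 3242, 3377 and 3186 CPM.

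**Figure D1:**
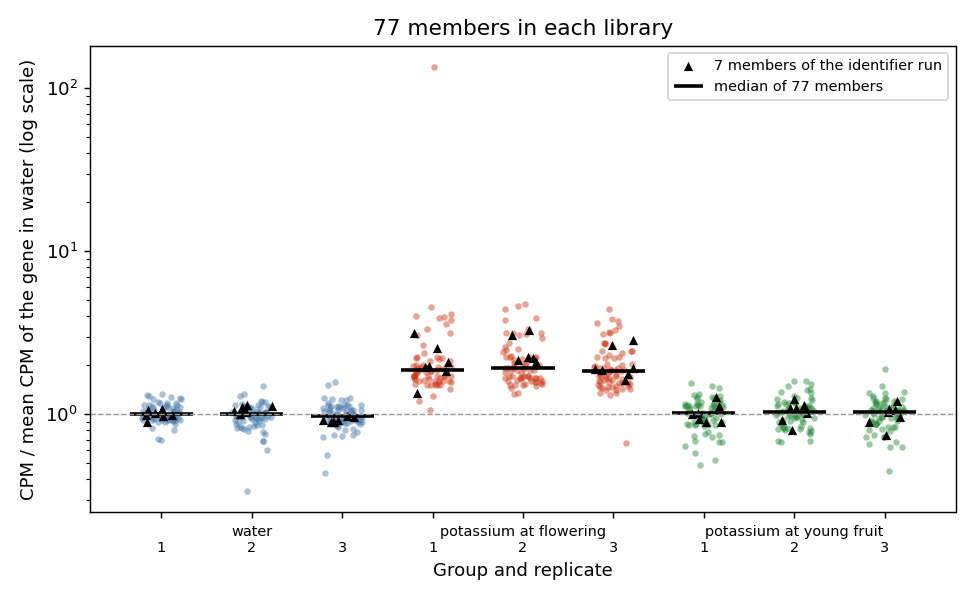
Each point is 1 of the 77 members in 1 of the 9 libraries, as its CPM divided by its mean CPM in water (log axis); bars are medians over the members and triangles are the 7 members whose identifiers lie in 1 run of numbers. The medians stand at 1.86, 1.93 and 1.85 in the flowering libraries and between 1.01 and 1.03 in the young fruit libraries, and 1 locus in flowering replicate 1 lies far above the rest.

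Calls of the fit to the whole table are given as a description, since the rule used all 3 contrasts. By edgeR's quasi-likelihood test with Benjamini-Hochberg adjustment at 0.05, 76 of the 77 were called higher at flowering than in water, where 24.3% of all genes tested were. The direct comparison with young fruit called 74 members higher at flowering, against 9.24% of all genes. Both calls together were met by 74 members and 4.15% of all genes. Between young fruit and water 9 members were called, 5 higher and 4 lower at young fruit, against 51.3% of all genes in either direction. A missed threshold there does not show that the levels were equal. The contrasts share libraries (flowering in the first 2, water in the first and last), so their values are given side by side and not as separate evidence.

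Median log2 fold changes over the 77 were 0.90 against water and 0.89 against young fruit, and those of all genes tested were -0.02 and 0.0035. For young fruit against water the medians were 0.04 over the members and -0.02 over all genes. When library totals were used without TMM factors, the median of all genes in flowering against water became -0.13 and that of the members 0.79. All 3 flowering libraries stood above all 6 others in 73 members, beside 7.67% of all genes. The ranges of water and young fruit overlapped in 67 of the 77, and the same share over all genes was not counted. None of these counts is support for the pattern, which the choice of members fixed.

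**Figure D2:**
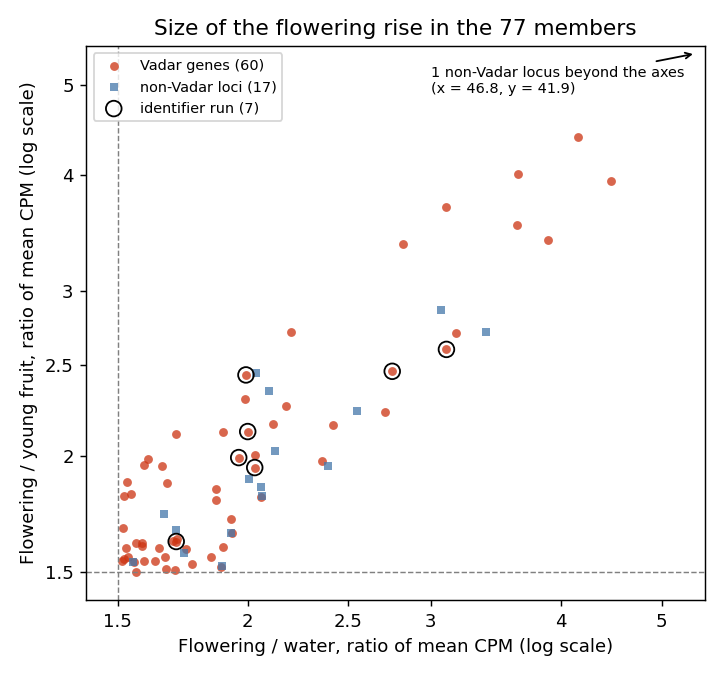
Each point is a member, placed by the ratio of its flowering mean CPM to that of water (x, log axis) and of young fruit (y, log axis); dashed lines mark the bound of 1.5, and rings mark the 7 members of the identifier run. Most members lie below 2.5 on both axes, and 1 non-Vadar locus at 46.8 and 41.9 lies beyond the axes.

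The member with the largest ratios of all was a non-Vadar locus that rests on 1 library and is described with the spread within groups. Among Vadar genes with no overlap between groups, Vadar_g15960.v1.2 had the largest ratio to water. It stood at 3.92, 3.61 and 4.06 CPM in water, at 17.6, 17.2 and 17.02 CPM after flowering-stage potassium and at 4.43, 5.92 and 2.79 CPM after young-fruit-stage potassium. The flowering libraries lay within 1 CPM of each other, and the other 6 were all under 6 CPM. The ratio of means was 4.47 over water (17.3 ± 0.285 against 3.86 ± 0.229 CPM, SD, n = 3) and 3.94 over young fruit (4.38 ± 1.57 CPM).

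Vadar_g11713.v1.2 came next, at 2.11, 0.966 and 1.76 CPM in water. After flowering-stage potassium it stood at 6.65, 7.40 and 6.01 CPM, and after young-fruit-stage potassium at 1.18, 1.22 and 2.17 CPM. Its ratios were 4.15 over water and 4.39 over young fruit. At 94 to 114 counts per flowering library and 19 to 35 in the others, the groups did not overlap, and the values rest on few counts.

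After these 2, the highest ratios to young fruit among Vadar genes with no overlap were those of Vadar_g26914.v1.2 and Vadar_g10496.v1.2. Vadar_g26914.v1.2 stood at 4.64, 4.07 and 6.18 CPM in water, 19.6, 16.5 and 18.0 CPM after flowering-stage and 4.43, 4.18 and 4.89 CPM after young-fruit-stage potassium, a ratio of 4.01 over young fruit and 3.64 over water. Vadar_g10496.v1.2 stood at 2.95, 2.29 and 3.81 CPM in water, 9.22, 9.35 and 9.53 CPM after flowering-stage and 2.06, 2.77 and 2.79 CPM after young-fruit-stage potassium. Its ratios were 3.69 over young fruit and 3.10 over water, and its flowering libraries differed from each other by far less than from any other library. When the rule was applied without each of the 9 libraries in turn, Vadar_g26914.v1.2 stayed a member in every case, Vadar_g15960.v1.2 was lost in 1 and the other 2 genes in 2 each.

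**Figure D3:**
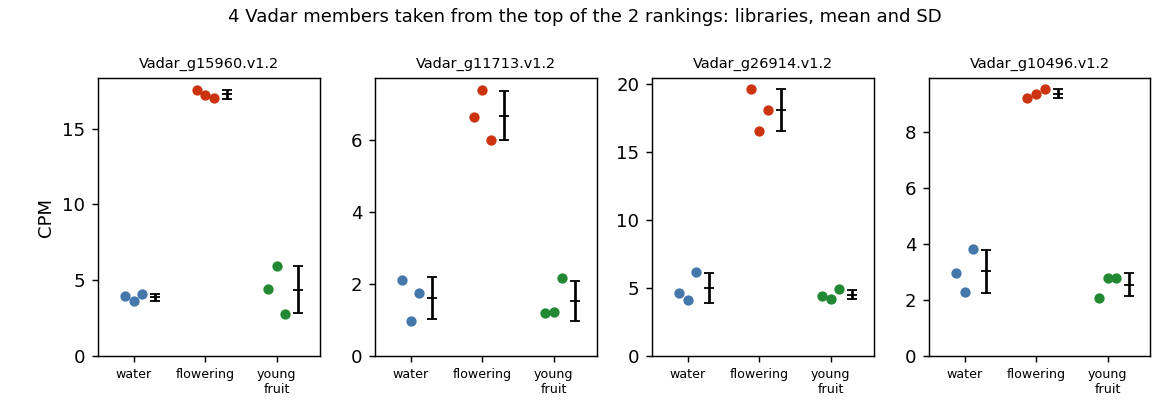
CPM of the 4 named members in each library (points) with the mean and SD of each group of 3 (bars); every axis starts at 0. In all 4 the flowering libraries lie above the others, and water and young fruit overlap.

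The ratios of the members with the most counts lay on both sides of the medians. The highest was a non-Vadar locus at 221, 199.6 and 212 CPM in water. It stood at 410.0, 413 and 397 CPM after flowering-stage and 235, 252 and 251 CPM after young-fruit-stage potassium. Its ratios were 1.93 over water and 1.65 over young fruit, and the young fruit libraries all lay above those of water (mean ratio 1.17).

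The second, also a non-Vadar locus, stood at 154, 161 and 149.7 CPM in water, 307, 334 and 316 CPM after flowering-stage and 170.4, 181 and 165 CPM after young-fruit-stage potassium. Here too the young fruit libraries lay above water, by a ratio of 1.114, inside the bound of the rule. The next, a Vadar gene, stood at 148, 172 and 135 CPM in water, 234, 252 and 236 CPM after flowering-stage and 142, 155 and 153 CPM after young-fruit-stage potassium. In it water and young fruit overlapped (mean ratio 0.990), and the flowering mean was 1.59 times that of water and 1.602 times that of young fruit. The fourth, also a Vadar gene, stood at 80.9, 80.3 and 79.5 CPM in water, 174, 179 and 177 CPM after flowering-stage and 60.1, 67.8 and 67.4 CPM after young-fruit-stage potassium. Its ratios of 2.20 and 2.71 were above the upper quartiles of the members, and its young fruit libraries all lay below those of water.

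Non-Vadar loci made up 22.1% of the members. They were 12.0% of the 14325 entries with the same minimum flowering level and 26.8% of the whole table. The members were lower than those 14325 entries (median flowering level 16.2 against 26.0 CPM), and the share at a matched level was not compared. Among the 216 genes higher at flowering than in both other groups, before the bounds on young fruit over water, the share was 25.9%. In the mirrored set raised at young fruit it was 15.2%. The 17 loci had a median flowering level of 10.7 CPM and a median ratio to water of 2.06, and the 60 Vadar genes had 16.9 CPM and 1.86.

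The identifier numbers of the Vadar members were not evenly placed. Of the 60, 9 had another member within 5 numbers (15%), while 177 of the 12543 other Vadar genes at 5 CPM or more had a member that near (1.41%). These 9 were a pair with consecutive numbers and a run of 7 members from Vadar_g21930.v1.2 to Vadar_g21944.v1.2. None of the 17 non-Vadar loci had another within 10 numbers. Whether neighbouring numbers are neighbours on a chromosome is not given in the sources used here. The run was singled out after its values had been seen.

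The 7 members of the run held 530.1, 594 and 513 CPM in the flowering libraries. They held 240.0, 251 and 216 CPM in water and 246, 250.1 and 231 CPM after young-fruit-stage potassium. The groups of sums did not overlap between flowering and the others, a separation that the rule largely fixes. The run carried 13.1 to 14.9% of the members' summed CPM in water and 15.8 to 17.6% in the flowering libraries. The highest flowering library was replicate 2 in 6 of the 7 genes, and replicate 2 was also the highest in 36 of all 77 members.

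The first gene of the run, Vadar_g21930.v1.2, stood at 67.8, 65.6 and 57.0 CPM in water, 126, 140.4 and 120.2 CPM after flowering-stage and 65.0, 69.0 and 65.2 CPM after young-fruit-stage potassium. The ratio was 2.03 over water and 1.94 over young fruit. The gene with the largest ratio to water in the run, 3.11, had 33.8, 35.8 and 33.7 CPM in water, 109, 114 and 98.2 CPM at flowering and 43.9, 42.7 and 36.8 CPM at young fruit. All libraries of young fruit lay above those of water in that gene. The last gene, Vadar_g21944.v1.2, was the lowest, at 3.91 ± 0.506 CPM in water, 6.68 ± 1.62 CPM at flowering and 4.12 ± 0.526 CPM at young fruit.

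The span of the run holds 14 entries of the table, and 7 of these failed the rule. Of the 7, 6 passed the filter, and 4 of the 6 were called higher at flowering than in both other groups (4.15% of all genes tested were). The span was picked on these values, so nothing is read from that count. Ratios of the 6 ran from 1.24 to 2.73 over water and from 1.59 to 2.58 over young fruit. The 4 missed the rule through its other bounds. For 3 of them young fruit was 1.26, 1.28 and 1.43 times water, and 1 stood at 2.72 CPM at flowering, under the minimum. The other 2 tested had flowering means of 3.23 and 2.53 CPM with ratios to water of 1.42 and 1.24.

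The ends of the run are its outermost members, so the lack of members just outside follows from how it was delimited. Of the 8 tested genes within 10 numbers before it, 3 were called higher at flowering than in water, and the median ratio of flowering to young fruit was 1.03. Of the 3 tested genes within 10 numbers after it, 1 was called higher than water, and that median was 0.979. In none of these genes did all 3 flowering libraries lie above the 6 others. Of all genes tested, 24.3% were called higher at flowering than in water, and 7.67% had all flowering libraries above the others. With so few genes beside the run, nothing is read from these counts. With each library left out in turn, 6 to 7 of the run's members and 3 to 4 of its other genes were called in both contrasts, and under each other scaling 7 and 4 were. The counting method is not given in the sources used here. If genes of the run have near-identical copies, reads could be divided among them, and their values would then not be independent of each other. That was not tested.

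**Figure D4:**
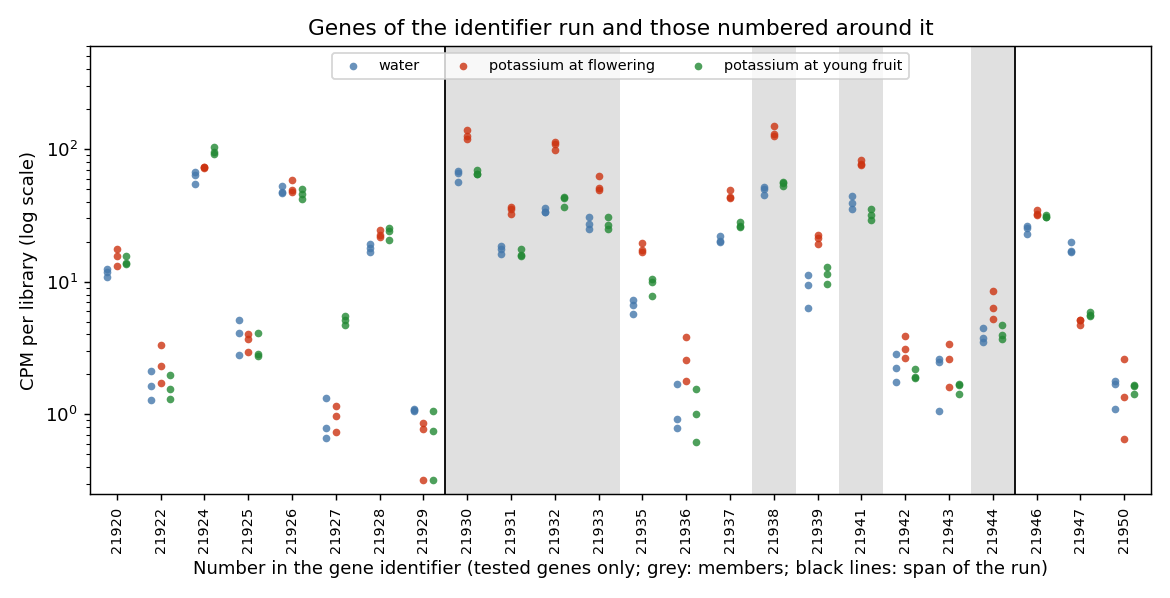
CPM in each library (log axis) of the tested Vadar genes of the run and of those within 10 numbers on either side, ordered by identifier number, with members shaded and the span of the run between the black lines. Inside the span the flowering libraries lie highest in 11 of 13 genes, and outside it in none, beside 7.67% of all genes tested. The span was drawn around members chosen for high flowering values, which largely fixes this contrast.

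Most genes next to the remaining members did not reach 1.5-fold over both other groups. The 46 tested non-member Vadar genes whose number was 1 away from a member outside the run had median ratios of 1.07 over water and 1.09 over young fruit. At least 1.5-fold over both was seen in 3 of them (6.52%), beside 323 of 19921 non-member Vadar genes tested (1.62%). Over those 19921 the medians were 0.995 and 1.00. The higher share beside members rests on 3 genes, and the 2 sets were not matched for level.

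Spread within groups was wider in the members than in other genes of the same minimum level. The median coefficient of variation was 8.83% in flowering, 11.5% in water and 12.8% in young fruit. Over all 14325 entries it was 6.11%, 7.18% and 6.74%. The members were also lower in water and young fruit than those entries (medians of 6.81 and 6.70 CPM against 25.2 and 26.3 CPM). Spread at a matched level was not compared. In 54 members the highest flowering library was less than 25% above the lowest. In 3 members it was at least 2 times the lowest, and the other 20 lay between.

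In 2 of those 3, both non-Vadar loci, membership was lost without 1 flowering library, replicate 1 or replicate 3. The locus with the largest ratios of all (46.8 and 41.9) had 1912 counts in flowering replicate 1 and 52 and 20 in the other flowering libraries, or 117, 3.38 and 1.28 CPM. Water held 0.484 to 1.15 CPM and young fruit 0.499 to 1.22 CPM. Without flowering replicate 1 its flowering mean was 2.33 CPM, and it was no longer a member. Of the 2 others, a Vadar gene at 24.9, 23.3 and 4.10 CPM at flowering overlapped water (6.75, 2.08 and 9.69 CPM) and young fruit (4.25 to 5.86 CPM). The remaining one, a non-Vadar locus, stood at 4.64, 3.70 and 9.09 CPM at flowering and fell below the minimum without flowering replicate 3. With each of the 9 libraries left out in turn, the 3 were lost in 3, 2 and 2 cases, in the order given here.

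Membership depended on individual libraries for 50 of the 77, some with ratios far above 1.5. With the rule applied without each of the 9 libraries in turn, 64 to 80 genes were chosen, among them 55 to 69 of the 77. The most members, 22, were lost without young fruit replicate 2. In all 9 of these choices 27 members stayed (21 Vadar genes, 4 of them in the run, and 6 non-Vadar loci). The flowering libraries lay above every other in all of the 27, beside 73 of the 77 members and 7.67% of all genes tested. Staying under the rule largely fixes that separation. Their median ratios were 2.03 over water and 1.99 over young fruit, with a median flowering level of 34.8 CPM. The 50 others had medians of 1.73 and 1.81.

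Many genes lay close to the bounds. Of the members, 28 were under 1.6-fold over water or over young fruit, and 38 genes outside the set were at least 1.4-fold over both with the other bounds met. The lowest member had a flowering mean of 5.02 CPM, and the nearest gene below the minimum had 4.96 CPM, with 0.904 CPM in water and 0.945 CPM at young fruit. The lowest ratio to water among members was 1.52 (nearest outside 1.498), and the lowest ratio to young fruit was 1.502 (nearest outside 1.498). For young fruit over water the lowest member had 0.808 and the highest 1.248. Just below the lower bound, at 0.777, was a Vadar gene at 2.99 CPM in water, 38.4 CPM at flowering and 2.32 CPM at young fruit, whose rise at flowering was larger than that of any member apart from the locus that rests on 1 library. Just above the upper bound, at 1.258, was a gene of the identifier run.

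The same measure was read in libraries that had no part in the choice. The rule was applied to 6 libraries, with 1 replicate number left out of every group, and the 3 left-out libraries (1 per group) were then examined. This chose 80, 69 and 82 genes without replicates 1, 2 and 3. In the left-out libraries flowering was higher than both water and young fruit in 73 of 80, 64 of 69 and 76 of 82 of them. The shares were 91.2, 92.8 and 92.7%, and among the other genes at 5 CPM or more they were 32.9, 34.4 and 30.1%.

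The size of the rise held in fewer. At least 1.5-fold over both in the left-out libraries was seen in 47, 40 and 40 of the chosen genes (58.8, 58.0 and 48.8%, against 1.49, 1.38 and 1.18% of the others). The bounds on young fruit over water were met as well by 30, 25 and 22 (37.5, 36.2 and 26.8%, against 0.464, 0.435 and 0.344%). The median left-out ratios were 1.86, 1.87 and 1.76 over water and 1.69, 1.88 and 1.64 over young fruit. In the libraries that chose the genes the medians were 1.85, 1.95 and 1.88 over water and 1.84, 1.86 and 1.85 over young fruit. A left-out ratio rests on 1 library per group, so its counting and sampling error is larger than that of a mean of 3. Altogether 141 different genes were chosen at least once, and the 28 chosen all 3 times were all among the 77. A gene within the bounds in all 3 choices is nearly bound to meet them on all 9 libraries, so nothing is read from that overlap. The 3 choices share libraries and are not independent of each other.

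**Figure D5:**
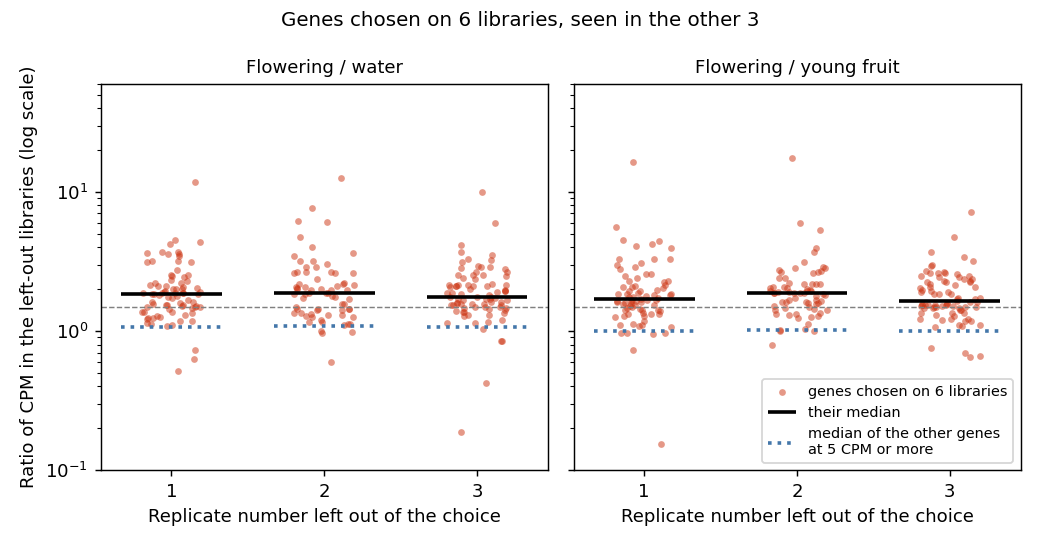
Ratio of CPM in the 3 left-out libraries (log axis) for the genes chosen on the other 6, by the replicate number left out; black bars are medians of the chosen genes, dotted bars those of the other genes at 5 CPM or more, and the dashed line is 1.5. The medians of the chosen genes lie between 1.64 and 1.88, and those of the other genes near 1.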

How the data were processed

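The authors deposited raw gene counts for the 9 libraries (judged from the values, which are whole numbers, and from the column names). The submitters' processing notes name HISAT2 2.1.0 and StringTie 1.3.4d without roles; the sources used here do not give the counting tool, genome build, annotation or strandedness. Groups and replicate numbers came from the sample titles.

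The rule used CPM with TMM factors over all 38665 entries. Calls came from edgeR 4.0.16 (R 4.3.3): filterByExpr at its defaults (minimum count 10, total 15), TMM on the 25728 genes kept, and the quasi-likelihood F test on 9 libraries with 1 term per group, Benjamini-Hochberg adjusted over all genes and called under 0.05. The procedure was run on simulated data in which genes were raised in flowering only and young fruit equalled water. These data differ from that setting, with 51.3% of all genes called between young fruit and water. The simulation therefore checks the code and not the members. Named genes were the top 2 Vadar members of each ratio ranking with no overlap between groups, passing over one already named. Members, lists and tests were chosen with earlier results of these data known. The gene lists (anthocyanin, potassium and sulfate transport, sugar, cell wall, hormones, tissue markers) could not be matched to identifiers and have no result. Alternatives covered scaling, filters, DESeq2 1.42.0, limma 3.58.1, a replicate block, thresholds, bounds and left-out libraries. Ratios of means are plain CPM with no pseudocount.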

Additional observations from a re-analysis of the deposited data

Results flagged for a closer look

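Potassium at flowering and at young fruit, each set against water, gave different effects in 74 of the 77 members, by edgeR's direct test of flowering against young fruit, which called 9.24% of all genes tested higher at flowering. The rule chose the members on this difference, so the count describes the choice and is no independent result. Groups of 3 libraries are small for a test of single outlying samples, so the locus with 1912 counts in flowering replicate 1 is described with the members. The edgeR fit called it higher at flowering than in both other groups. It is thus among the 76 and 74 members called and the 73 with all flowering libraries above the others. Its flowering replicate 3 stood at 1.28 CPM, beside a highest young fruit library of 1.22 CPM.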

How the results depend on the processing

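Of 95 recomputed values, 87 held (counts within 1.5 times the count reported, the left-out share within 1 SD of its 3 values) and 8 did not. A count that held does not mean that the same genes were counted. Calls, however, were always counted among the 77, which the rule picked on these contrasts from all 9 libraries. The 19 alternatives for each flowering contrast were therefore largely bound to hold, and nothing is read from that. Without replicates 1, 2 and 3 the rule kept 56, 49 and 55 of the 77. The pooled left-out share is itself made up of the 3 values it was set against. Settings of the rule moved the number of members most, to 24 with a fold of at least 2, 37 with young fruit at most about 10% below or 11% above water, 51 with flowering at least 10 CPM and 196 with at least 1 CPM. Library size scaling gave 60 members (51 of the 77) and group medians 84 (59 of the 77). The TMM factors that library size scaling leaves out differed by group, at 1.05 to 1.07 in water and 0.961 to 0.981 in the libraries given potassium. Leaving them out therefore changes every ratio to water. The 9 members called at young fruit against water became 5 under upper quartile scaling, 5 under library size scaling and 3 at an adjusted p under 0.01. With a replicate block 77, 77 and 10 members were called in the 3 contrasts, against 76, 74 and 9, and no count moved by 1.5 times. Deviations of same-numbered libraries correlated at -0.038 to 0.046, and those of other pairs at -0.050 to 0.064. Not every library correlated best with its own number. No pairing by number was seen, but values this close to 0 do not settle whether the numbers pair samples. DESeq2 called 72, 65 and 6 of the 76 members it gave an adjusted p. Of all genes tested, 4.58% were called in both flowering contrasts with the block and 2.74% with DESeq2, against 4.15% in the main fit. That share was 4.23% under upper quartile scaling, 3.7% under library size scaling and 2.46% at an adjusted p under 0.01. For young fruit against water the share was not counted in these settings. The share of genes whose left-out libraries met the whole rule was 33.3% over the 3 choices and ran from 26.8 to 37.5%. The number of Vadar members with another within 5 numbers, 9, ran from 6 to 11 over 15 alternatives added after the data had been seen. The causes of these shifts were not tested. Depth limits the low members: at 5 CPM a gene has under 100 counts per library.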
